A study of Aedes albopictus with 6 samples.

Results

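LOC109415824 is 1 of 23529 genes with values in a table of RNA-seq read counts from ovaries of the mosquito Aedes albopictus, and the table describes it as phosphoglycolate phosphatase 2. It was chosen by its difference between the 2 groups of libraries, having been called by DESeq2 and not by edgeR at an adjusted p of 0.05, so that difference is given as a description without a test. The groups were 3 control ovary libraries and 3 ovary libraries labelled Aalpi18529 overexpression. The series text says that mimics of this PIWI-interacting RNA (piRNA) were given and that ovarian development after a blood meal was of interest. Mosquito strain, age, dose, hours after the meal, the number of females per library and what the controls received are not stated in the labels or files. Nothing in the labels says that libraries came from separate cages or animals, so p-values measure the spread between these libraries, which may be technical.

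Phosphoglycolate phosphatases belong to the haloacid dehalogenase (HAD) superfamily of enzymes that remove phosphate from small molecules. The mammalian enzyme hydrolyses phosphoglycolate, a by-product that inhibits glycolytic enzymes, and glycerol 3-phosphate, which stands between glycolysis and the synthesis of glycerolipids. An ovary after a blood meal takes up yolk and stores lipid in its oocytes, and glycerol 3-phosphate is a precursor of such lipids. Which substrate the mosquito gene product uses is not annotated in the files.

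Estimated counts per library summed to between 15719412 and 16465531, a narrow range. Germ line marker genes, including vasa, were present at a summed level of 4219 to 4535 CPM (counts scaled to the library total) in controls and 4294 to 4562 CPM under overexpression. Markers of follicle cells and eggshell summed to 6307 to 6460 CPM and 6201 to 6703 CPM. Among markers of other tissues, 91 muscle genes summed to 3538 to 3613 CPM in the control libraries and 3340 to 3446 CPM under overexpression, without overlap. Of the 69 muscle genes tested, 22 were higher under overexpression and 47 lower. At an unadjusted p under 0.05 by edgeR there were 9 of the 69, beside 4.92% of all genes tested. The 23 fat body genes summed to 133 to 163 CPM and 158 to 219 CPM, the 108 haemocyte genes to 657 to 699 CPM and 669 to 677 CPM, and the 152 midgut genes to 486 to 545 CPM and 483 to 516 CPM. Blank rows had been left out, so markers without values could not appear in these lists, and of the rest none was at 0 in all 6 libraries. Only 9 of the 23 fat body, 56 of the 108 haemocyte and 22 of the 152 midgut genes were abundant enough to be tested. Of the 9 fat body genes, 8 were higher under overexpression and 1 lower. No marker was called by edgeR, and the part of these markers in the results below was not tested. In whole ovaries, fewer cells of a type and less RNA per cell cannot be told apart.

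LOC109415824 (gene ID 109415824, scaffold NW_021838576.1, positions 8263292 to 8264835 as the deposited table gives them, build not stated) had estimated counts of 2145.23, 1847.39 and 2478.03 in control libraries 1, 2 and 3. It had 4150.54, 4395.91 and 3216.84 in overexpression libraries 1, 2 and 3. Every overexpression library was above every control, and overexpression library 3 was the lowest of its group.

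As a level, the gene stood at 133 ± 18.8 CPM in the control libraries and 247 ± 35.8 CPM under overexpression (SD, n = 3), a ratio of 1.86. The log2 fold change, overexpression minus control, was 0.90 ± 0.13 (SE from edgeR). The values it was chosen on were an adjusted p of 3.63e-08 by DESeq2 and 0.481 by edgeR's quasi-likelihood test. DESeq2 called 0.0652% of the genes to which it gave an adjusted p, and edgeR called 0.0129% of the 15540 genes it tested. Of 2463 tested genes averaging at least 100 CPM, 2 had a log2 fold change of this size or more, this gene included.

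None of these counts was a whole number, and 1 other row of the table completed them. LOC109402699 (gene ID 109402699, scaffold NW_021839126.1, positions 92652 to 94072) carries the same description, phosphoglycolate phosphatase 2. Its estimated counts were 16989.77, 14614.61 and 19381.97 in control libraries 1, 2 and 3. They were 15699.46, 16208.09 and 16636.16 in overexpression libraries 1, 2 and 3. Added to those of LOC109415824, they gave whole numbers in all 6 libraries, within 0.01. The sums were 19135, 16462 and 21860 in control libraries and 19850, 20604 and 19853 under overexpression.

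Whole sums are what reads divided between the 2 genes, and no others, would leave. LOC109402699 held most of the reads and its groups overlapped, at 1045 ± 143 CPM in the control libraries and 1021 ± 46.2 CPM under overexpression (SD, n = 3). The fitted log2 fold change was -0.03 ± 0.09 (SE), with an adjusted p of 0.985 by edgeR, and leaving out control library 3 turned it to 0.06. That p is not independent of the choice of LOC109415824, since the estimates of the 2 genes complete each other.

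The sum of both genes was 1206, 1005 and 1324 CPM in control libraries 1, 2 and 3 and 1235, 1291 and 1276 CPM in overexpression libraries 1, 2 and 3. The groups overlapped, since control library 3 was the highest of all and control library 2 the lowest. The means were 1178 ± 162 and 1267 ± 28.8 CPM (SD, n = 3). In a fit that treated each such pair as 1 gene, the log2 fold change of the pair was 0.11 ± 0.09 (SE), against 0.90 for LOC109415824 alone. LOC109415824 held on average 11.3% of the pair's counts in the control libraries, so a change in it alone alters the sum little in proportion. Its mean was 114 CPM higher under overexpression, while that of LOC109402699 changed by -24.8 CPM, against a control SD of 143 CPM. How far level and division of reads each enter was not tested. The sum holds the chosen gene, so it too is described without a test.

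**Figure D1:**
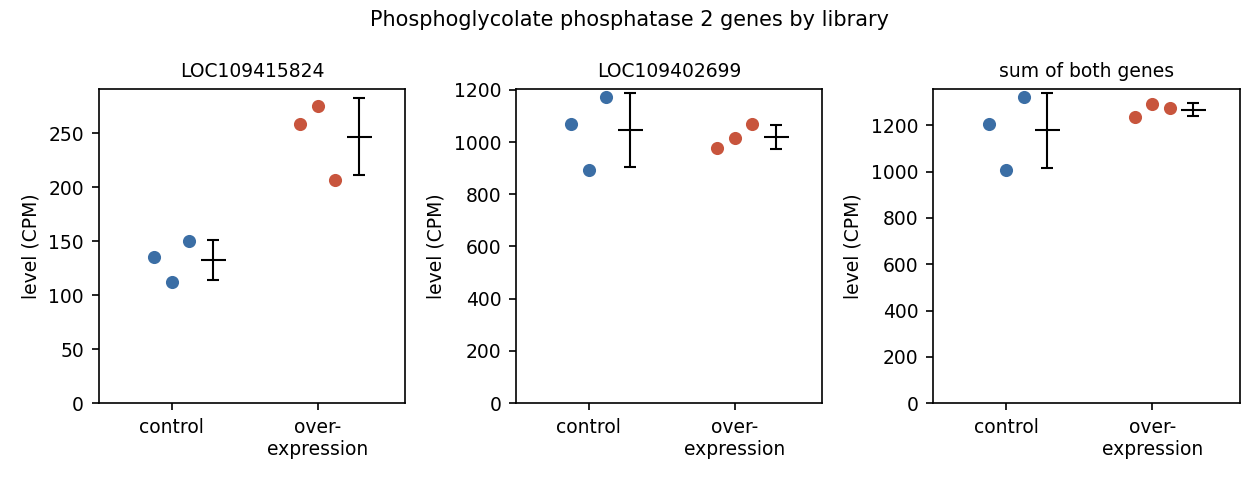
Level in CPM (y axes from 0, scales differ between panels) of LOC109415824, of LOC109402699 and of their sum in each library. Points are libraries, and bars are the mean and SD of 3 libraries. LOC109415824 averaged 133 CPM in the control libraries and 247 CPM under overexpression without overlap, while the sum averaged 1178 and 1267 CPM with overlap. LOC109402699, the larger part of the sum, averaged 1045 and 1021 CPM.

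The groups also differed in how the reads of the pair were divided. LOC109415824 held 11.2%, 11.2% and 11.3% of the pair's estimated counts in control libraries 1, 2 and 3. It held 20.9%, 21.3% and 16.2% in overexpression libraries 1, 2 and 3. The control shares were almost identical although the sums behind them ranged from 16462 to 21860, and all 3 overexpression shares were higher. For the scale of counting error, the 95% Wilson interval in control library 1 was 10.8% to 11.7%. It takes the estimates as counts, covers neither the error of dividing reads nor the spread between libraries, and is no comparison of the groups.

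Neighbouring genes showed the same arrangement. The scaffold of LOC109402699 has 5 rows in the table, of which 3 have values, and each of these 3 formed such a pair with a gene within the stretch around LOC109415824. LOC109415823 (positions 8227220 to 8248005), described as N-alpha-acetyltransferase 35, a subunit of the NatC complex that acetylates protein N termini, paired with LOC109402698. LOC109415828 (positions 8298991 to 8315344), described as phosphoglycolate phosphatase 2-like, paired with LOC109414369, described as pyridoxal phosphate phosphatase-like. Both of these pairs summed to whole numbers in all 6 libraries.

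LOC109415823 held 21.9%, 23.7% and 20.5% of its pair's counts in control libraries 1, 2 and 3 and 29.0%, 27.1% and 24.7% in overexpression libraries 1, 2 and 3. The groups did not overlap, and an exact two-sided permutation test gave p = 0.1, the smallest that 3 libraries against 3 allow. The summed level of this pair was 141 ± 2.91 CPM in the control libraries and 133 ± 10.5 CPM under overexpression (SD, n = 3), with adjusted p = 0.966 (edgeR). LOC109415828 held 25.5%, 12.7% and 25.7% in control libraries and 46.7%, 68.5% and 32.1% under overexpression, again without overlap and with an exact two-sided permutation p = 0.1. Only 49 to 89 reads per library stood behind these last shares. The sum of that pair was 3.78 ± 1.13 CPM and 4.32 ± 1.20 CPM (SD, n = 3), with adjusted p = 0.972 (edgeR).

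A further pair lay wholly on the scaffold of LOC109415824, next to it. LOC115269658 (positions 8272515 to 8273970) and LOC115269659 (positions 8295767 to 8297575), both described as phosphoglycolate phosphatase 2-like, summed to 22, 32 and 27 reads in control libraries and 27, 33 and 18 under overexpression. LOC115269658 held 46.4%, 41.6% and 50.4% of these in control libraries and 68.1%, 67.0% and 63.1% under overexpression. The groups did not overlap (exact two-sided permutation p = 0.1), and the summed levels, 1.66 ± 0.284 and 1.64 ± 0.457 CPM (SD, n = 3), gave adjusted p = 0.998 (edgeR).

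In all 4 pairs overexpression library 3 was the overexpression library closest to the controls. The pairs are neighbours, found after the values of LOC109415824 were known, and are not independent of each other. The outer neighbour LOC115269984, a methyltransferase-like gene with whole counts, stood at 89.0 ± 4.45 and 89.1 ± 2.33 CPM (SD, n = 3) with adjusted p = 0.999 (edgeR).

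**Figure D2:**
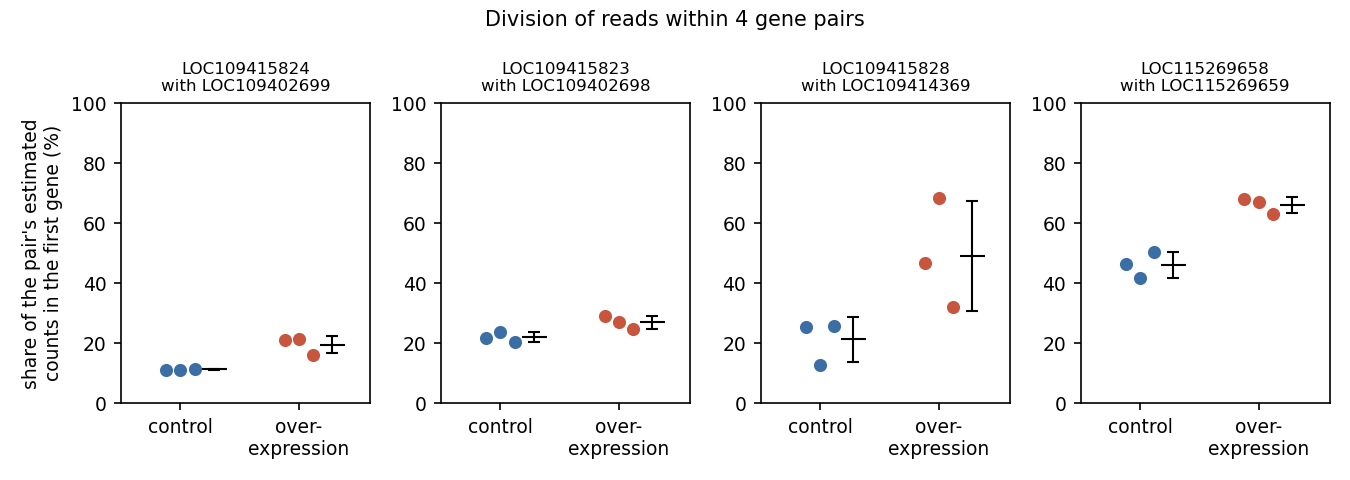
Share of each pair's estimated counts held by the first gene named above the panel, in percent, for 4 pairs at the LOC109415824 locus. Points are libraries, and bars are the mean and SD of 3 libraries. For LOC109415824 the mean share was 11.3% in controls and 19.5% under overexpression, and in no panel do the groups overlap. For the 3 pairs that join different scaffolds, the overexpression libraries lie above the controls. For LOC115269658, whose partner is on the same scaffold, the direction depends on which gene is named first.

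Pairs of this kind were common in the table. A search for genes whose estimates add up to whole numbers in every library found 3573 pairs, 75.2% of them with the same description in both rows apart from the ending -like. Of the 3350 pairs with at least 10 reads in every library, the shares of the groups did not overlap in 372, which is 11.1%. Among 1498 pairs with at least 1000 reads in every library, the median size of the share difference was 1.48 percentage points and the 95th percentile was 5.71. The 8.23 points of the LOC109415824 pair were reached or passed by 16 of these pairs, itself included, and the 4.95 points of the LOC109415823 pair lay below the 95th percentile. The shares of LOC109415824 follow from the values it was chosen on, so its place in this ranking is a description.

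Along the scaffold, 72 pairs with at least 10 reads joined a gene of the LOC109415824 scaffold to one of another scaffold. The share of the LOC109415824 scaffold was higher under overexpression in 43 of them. In 6 the groups did not overlap, which was no more frequent than the 11.1% of all 3350 pairs with at least 10 reads. Among these 6 were the 3 shared with the scaffold of LOC109402699. The nearest pair outside that stretch, LOC115269977 at a distance of 2561 kb, differed by 4.02 points in the same direction, also without overlap, on at least 131 reads per library.

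**Figure D3:**
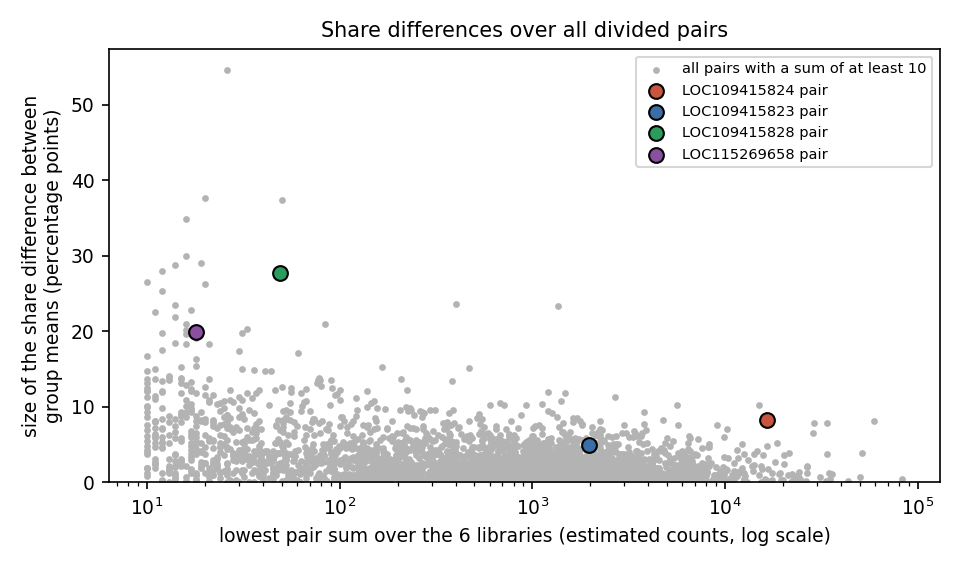
Size of the difference in mean share between overexpression and control (y axis, percentage points) against the lowest pair sum over the 6 libraries (x axis, log scale). Grey points are all pairs with at least 10 reads in every library, and coloured points are the 4 pairs at the LOC109415824 locus. The LOC109415824 pair, at 8.23 points, lies above nearly all pairs of more than 1000 reads, whose median was 1.48 points.

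A later RefSeq annotation of the species, on assembly AalbF5, was used for gene names and their order only. Of the 9 genes of the phosphatase family in the table, 7 matched it by gene ID, and LOC109402699 and LOC109415828 did not. In it LOC115269984, LOC109402698, LOC109415824, LOC115269658, LOC115269659, LOC109414369 and LOC109403193 follow each other in this order with other genes between some of them. LOC109403193 is in none of the pairs described at this locus. For each cross-scaffold pair at the locus, 1 gene has a place in this order. Exactly 1 gene matched in 3144 of the 3573 pairs (88.0%), both genes in 270 and neither in 159. Whether LOC109415824 and LOC109402699 are alleles of 1 gene or separate copies was not tested.

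The other 8 rows described as phosphoglycolate or glycerol-3-phosphate phosphatase were found by name. The 2 phosphoglycolate phosphatase 2 genes of the divided pair held 95.6% to 96.5% of the counts of all 9. Of the 8, 7 were abundant enough to be tested and edgeR called 0, beside 0.0129% of all genes. At an unadjusted p under 0.05 there was 1 of the 7, beside 764 (4.92%) of the 15540 genes tested. DESeq2 also called 0 of the 8. The CPM of the groups did not overlap in 1 of the 8, LOC115269659, against 10.4% of all genes tested.

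The gene with the smallest unadjusted p among the 8 was LOC109415828, with estimated counts of 13, 6.35 and 21.62 in control libraries and 41.56, 46.59 and 15.74 under overexpression. Its groups overlapped, and the log2 fold change was estimated at 1.38 ± 0.52 (SE) with adjusted p = 0.963 (edgeR). Of the other family members at this locus, LOC115269658 stood at 0.76 ± 0.101 and 1.09 ± 0.332 CPM (SD, n = 3), or 0.49 as log2 fold change. LOC115269659 stood at 0.898 ± 0.212 and 0.548 ± 0.128 CPM (SD, n = 3), or -0.66 as log2 fold change. Both gave adjusted p = 0.963 (edgeR), and both rest on divided reads. Without overexpression library 2 or 3 the log2 fold change of LOC115269658 was 0.27 or 0.72, and that of LOC115269659 was -0.44 without control library 2.

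Whole counts, in which no division of reads is visible, were found in 4 members. LOC109399621 (scaffold NW_021838465.1, positions 43211368 to 43214114), described as glycerol-3-phosphate phosphatase-like, had 477, 506 and 534 counts in control libraries and 479, 507 and 489 under overexpression. These values were nearly level, at 31.1 ± 1.16 and 31.0 ± 1.05 CPM (SD, n = 3), with a log2 fold change of 0.00 ± 0.08 (SE) and adjusted p = 0.998 (edgeR). LOC109399254 (scaffold NW_021838153.1, positions 93111642 to 93112826), phosphoglycolate phosphatase 2-like, had 179, 198 and 229 counts in control libraries and 153, 172 and 203 under overexpression. Its groups overlapped, with a log2 fold change of -0.16 ± 0.16 (SE) and adjusted p = 0.971 (edgeR). Leaving out control library 3 gave -0.07, and leaving out overexpression library 1 or 3 gave -0.06 or -0.29. Its neighbour LOC109399255 had at most 3 counts in any library and was not tested. LOC109401921 had 5, 11 and 9 counts in control libraries and 7, 13 and 12 under overexpression, with adjusted p = 0.971 (edgeR).

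Summed over the 8 genes, of which LOC109402699 alone gave 1045 CPM in controls, so that the sum is mainly that of the divided partner, the level was 1092 ± 144 CPM in the control libraries and 1067 ± 47.8 CPM under overexpression (SD, n = 3). The log2 difference was -0.03, and exact two-sided permutation over libraries gave p = 0.9, where 0.1 is the smallest p the design allows. The estimates of LOC109402699 complete those of the chosen gene, so this p is not independent of the choice and no conclusion is drawn from it. Removing control library 3 or overexpression library 1 turned this difference positive, to 0.06 and 0.01. With LOC109415824 included, the 9 genes summed to 1225 ± 163 and 1314 ± 31.1 CPM (SD, n = 3), a description only.

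**Figure D4:**
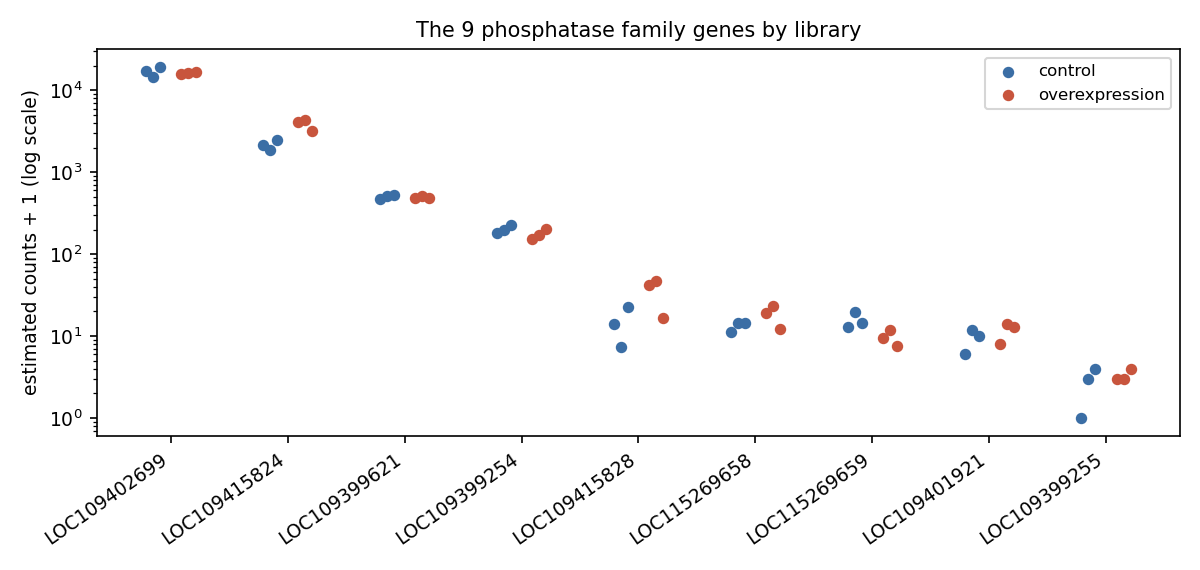
Estimated counts plus 1 (log scale) of the 9 phosphatase family genes in each library. Each point is 1 library, and genes are ordered by count, not per length. LOC109415824, at 1847 to 2478 counts in controls and 3217 to 4396 under overexpression, and LOC115269659 are the genes whose groups do not overlap.

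Genes of the pathways around the enzyme were taken by name, and edgeR and DESeq2 each called 0 of them. The median log2 fold change over all 15540 genes tested was 0.00, and 50.4% of them were higher under overexpression. The share of all tested genes at an unadjusted p under 0.05, 4.92%, is the background for the counts at that limit in each list below. Among 13 other HAD phosphatases, 5 had a positive and 8 a negative log2 fold change, with a median of -0.02 and 1 gene at an unadjusted p under 0.05. Enolase-phosphatase E1 (LOC109400059), of the methionine salvage pathway, had the most counts in this list, at 1564 ± 50.6 and 1529 ± 63.5 CPM (SD, n = 3), with adjusted p = 0.971 (edgeR). A PHOSPHO2-like pyridoxal phosphate phosphatase (LOC109406294) had the smallest p of the list, at 11.1 ± 0.753 and 14.7 ± 0.484 CPM. Its difference was 0.41 ± 0.12 (SE) on the log2 scale, with adjusted p = 0.963 (edgeR). It formed a divided pair with LOC109404509, which stood at -0.47 in the same list, and the pair's shares did not overlap between the groups. Whether its difference lies in the division of reads was not tested. Both genes of a divided pair count separately in these lists.

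Of 35 tested genes of glycerol 3-phosphate and glycerol metabolism, 19 had a positive and 16 a negative log2 fold change, with a median of 0.01 and 3 at an unadjusted p under 0.05. The smallest p belonged to cytoplasmic glycerol-3-phosphate dehydrogenase (LOC109622496), which makes glycerol 3-phosphate from a glycolytic intermediate. It stood at 178 ± 21.5 CPM in the control libraries and 152 ± 5.88 CPM under overexpression (SD, n = 3), without overlap. The groups did not overlap in 8 of the 35 genes, against 10.4% of all genes tested. For HAD phosphatases, glycolysis, the pentose phosphate pathway, and glyoxylate and serine metabolism it was 2 of 13, 1 of 15, 1 of 11 and 1 of 21. The log2 fold change of LOC109622496 was estimated at -0.23 ± 0.09 (SE) with adjusted p = 0.963 (edgeR). Without control library 2, the highest at 203 CPM, the log2 fold change was -0.12. An acyltransferase that adds a fatty acid to acylated glycerol 3-phosphate (LOC109430908) had the most counts, at 189 ± 1.79 and 191 ± 4.92 CPM, with adjusted p = 0.995 (edgeR).

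Of 15 tested glycolysis genes, 8 were positive and 7 negative, the median was 0.00 and 0 had an unadjusted p under 0.05. Glyceraldehyde-3-phosphate dehydrogenase (LOC109413713) had the most counts, at 843 ± 23.1 and 835 ± 30.2 CPM (SD, n = 3), with adjusted p = 0.99 (edgeR). A phosphoglycerate mutase-like gene (LOC109400507) had the smallest p, at 6.53 ± 0.686 and 8.62 ± 2.30 CPM, with adjusted p = 0.963 (edgeR).

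Of 11 pentose phosphate pathway genes, 2 were positive and 9 negative, with a median of -0.03 and 1 at an unadjusted p under 0.05. A transketolase-like gene (LOC109417152), which moves carbon units between sugar phosphates, had both the most counts and the smallest p. It stood at 1316 ± 21.4 and 1220 ± 7.58 CPM (SD, n = 3), a difference of -0.11 ± 0.04 (SE) on the log2 scale and adjusted p = 0.963 (edgeR). Of 21 tested genes of glyoxylate and serine metabolism, 11 were positive and 10 negative, with a median of 0.01 and 2 at an unadjusted p under 0.05. Cytosolic serine hydroxymethyltransferase (LOC109409418) stood at 317 ± 3.32 and 320.2 ± 14.5 CPM, with adjusted p = 0.991 (edgeR). Malate synthase (LOC109423732), an enzyme that consumes glyoxylate, stood at 14.1 ± 1.34 and 18.3 ± 3.23 CPM, with adjusted p = 0.963 (edgeR).

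**Figure D5:**
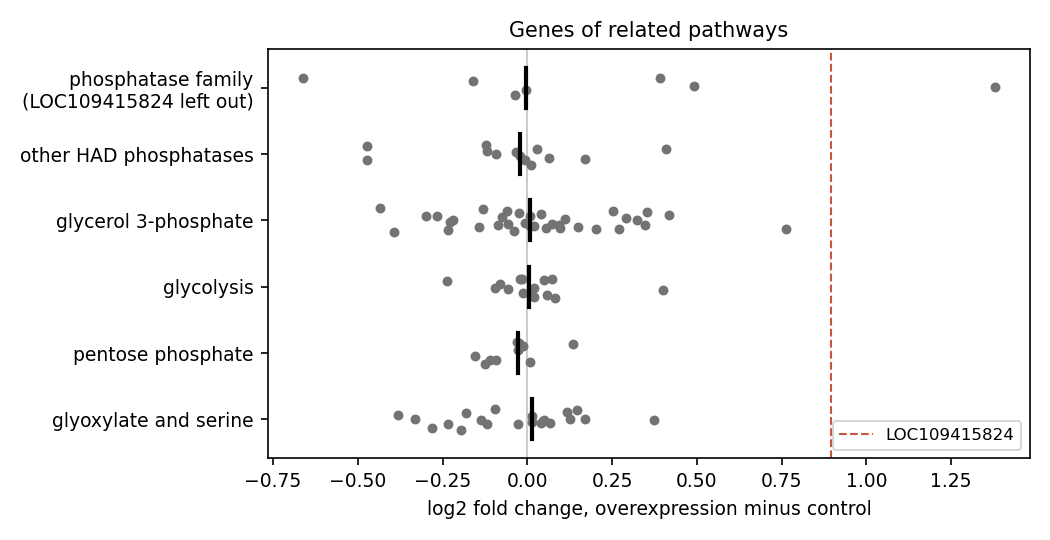
Log2 fold change, overexpression minus control, of the tested genes in 6 lists. Grey points are genes, black bars are list medians, and the dashed line marks LOC109415824 at 0.90. The medians lie between -0.03 and 0.01, and 1 of the genes shown, LOC109415828 at 1.38, lies beyond the dashed line.

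The genes whose levels ran most alike with LOC109415824 over the 6 libraries were sought among 11430 genes averaging at least 5 CPM outside the family. The 5 highest Pearson correlations of log2 CPM were those of a calcium-independent phospholipase A2-like gene (LOC109413865, r = 0.995), an uncharacterized gene (LOC109407536, r = 0.994), the centriole duplication kinase PLK4 (LOC109623259, r = 0.983), protein masquerade (LOC109429144, r = 0.983) and a tissue inhibitor of metalloproteinase-like gene (LOC109405944, r = 0.981). With 6 libraries and so many genes, coefficients of this size are a ranking only, and the points share the same groups and library totals. They were picked for running with a gene chosen on the group difference, so differences between the groups in them follow from the picking and are descriptions. Of the 5, masquerade differed most between the groups, at 13.8 ± 2.56 CPM in the control libraries and 26.5 ± 5.76 CPM under overexpression (SD, n = 3). The estimated counts of masquerade, LOC109413865 and LOC109405944 had decimals, while those of LOC109407536 and LOC109623259 were whole. Whether division of reads plays a part in the levels of these genes was not tested. The 2 most opposite were a galactosyltransferase-like gene (LOC109622498, r = -0.988) and the ribosome assembly factor periodic tryptophan protein 2 (LOC109424416, r = -0.985).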

How the data were processed

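RNA was isolated with TRIzol and sequenced from MGIEasy libraries, per the labels' protocols. HISAT and Bowtie2 are named in the submitters' processing notes. For counting program, strand setting and build, nothing is given in the sources used here. Values that the authors deposited are estimated counts per gene with decimals, not scaled between libraries, of which 10950 of 34479 rows are blank and were left out. 0 count columns belonged to no sample. Here counts were rounded for the tests, filtered with filterByExpr (minimum count 10), scaled by TMM and tested across all genes with edgeR 4.0.16's quasi-likelihood test (R 4.3.3), Benjamini-Hochberg adjusted at 0.05. DESeq2 1.42.0 and limma 3.58.1 were alternatives. CPM used unrounded counts and TMM-scaled totals. Pairs were genes with decimals in at least 4 libraries whose sums were whole within 0.01, each gene in 1 pair. The fit and the pair search were also run on simulated data, of which the outcome is not given here. Lists were name patterns, kept as written although the glycerol list also caught diacylglycerol kinases and the glyoxylate list phosphoglycerate kinases. Named genes were the family, the nearest 2 genes on each side, the 5 most alike and 2 most opposite genes, and per list any called gene or else the one with most counts and the one with the smallest p. Other genes at the locus were named after their values were seen. The member and lists were chosen with earlier results of these data known.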

Additional observations from a re-analysis of the deposited data

How the results depend on the processing

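Over 36 results, 399 values from other settings were compared with the reported ones. The log2 fold change of LOC109415824 was 0.79 to 1.01 when single libraries were left out. It moved to 0.11 only when divided pairs were summed, a setting chosen after seeing the data. There both genes are 1 feature, of which LOC109402699 holds most of the counts, so 0.11 is not a value of LOC109415824 alone. Family and list calls were 0 in every setting run. Over all genes, 2 calls became 15 with the DESeq2 Wald test, 0 with the replicate block and 0 to 2 with single libraries left out. Same-numbered libraries did not deviate together (correlations -0.01, 0.02 and 0.02), and under the replicate block the log2 fold change of LOC109415824 was 0.89. The 8 other family genes summed ranged from -0.131 to 0.061 on the log2 scale with single libraries left out. The log2 fold changes of genes near 0 also changed sign there: LOC109402699 ranged from -0.136 to 0.056, LOC109399621 from -0.026 to 0.024, LOC115269984 from -0.041 to 0.029, LOC109430908 from -0.013 to 0.019, LOC109409418 from -0.023 to 0.037 and LOC109413713 from -0.037 to 0.017. The cause was not tested. The 49 to 89 reads of the LOC109415828 pair limit the precision of its shares.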
